A study of Mus musculus with 11 samples.

Results

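The genes of the cytosolic ribosomal proteins were followed in neural progenitor cells (NPCs) after deletion of *Smg6*. They were taken as the protein-coding genes whose symbol begins with Rpl or Rps and continues with a ribosomal protein number or letter, which leaves out pseudogenes and the S6 kinases. This rule found 84 genes among the 53801 genes of the count tables, 52 for the large and 32 for the small subunit. NPCs were cultured from brains of E13.5 embryos, on a background of C57BL/6 mixed with 129SV, and every culture was homozygous for the floxed *Smg6* allele. Embryos are called by their labels, SMH and a number. Ctr cultures (n = 3, embryos SMH_128, SMH_132 and SMH_133) carried the RosaCreER transgene and received no 4-hydroxytamoxifen (4-OHT), the ligand that activates CreER. Ctr + 4-OHT cultures (n = 4, embryos SMH_125, SMH_126, SMH_129 and SMH_131) had no RosaCreER transgene and received 4-OHT. *Smg6*-iKO cultures (n = 4, embryos SMH_127, SMH_128, SMH_132 and SMH_133) carried the transgene and received 4-OHT, given at 1 µM for 3 days per the labels, with harvest 6 days after its start. CreER expressed from the Rosa26 locus is not restricted to a cell type. Ctr and Ctr + 4-OHT differed in the transgene as well as in the treatment, so that these cannot be told apart. *Smg6*-iKO differed from Ctr + 4-OHT in the transgene as well as in the deletion. From Ctr it differed in the 4-OHT treatment as well as in the deletion, which cannot be told apart either.

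Each ribosome is built from a small subunit that reads the mRNA and a large subunit that joins amino acids, and its proteins are needed in near equal amounts. Their mRNAs are abundant and short, and most begin with a run of pyrimidines that couples their translation to growth signals. Several of these genes also make splice forms with a premature stop codon, which nonsense-mediated mRNA decay (NMD) removes. SMG6 is the endonuclease of NMD and cuts target mRNAs near the stop codon. Introns of many ribosomal protein genes hold small nucleolar RNAs (snoRNAs), which guide the modification of ribosomal RNA.

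The libraries held between 26418249 and 33756875 counted reads. The summed level of 6 progenitor markers (*Nes*, *Sox2*, *Pax6*, *Vim*, *Hes5*, *Fabp7*) was 4909 to 5098 CPM (counts per 1000000 counted reads, scaled by TMM) in Ctr, 4350 to 5334 in Ctr + 4-OHT and 4234 to 4810 in *Smg6*-iKO. That of 5 neuron markers (*Tubb3*, *Dcx*, *Rbfox3*, *Map2*, *Stmn2*) was 1684 to 1845, 1544 to 2501 and 1956 to 2248 CPM. Mesenchymal markers (*Col1a1*, *Col3a1*, *Pdgfrb*) summed to 282 to 407, 235 to 666 and 219.9 to 1159 CPM, with the highest value in the *Smg6*-iKO library of embryo SMH_127. Globin and microglial markers summed to at most 0.0959 and 1.40 CPM in any library. The whole-gene count of *Smg6* also holds reads outside the floxed exons and is a weak check of the deletion. It was 62.3 to 71.9 CPM in *Smg6*-iKO, 66.5 to 72.3 CPM in Ctr + 4-OHT and 69.4 to 79.4 CPM in Ctr, with overlap of all groups.

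Most ribosomal protein genes had a slightly negative log2 fold change in *Smg6*-iKO against Ctr, and 3 rose against both controls. The 84 genes together took 1.29%, 1.31% and 1.32% of all counts in Ctr (mean 1.31% ± 0.0144, SD, n = 3). They took 1.17%, 1.29%, 1.32% and 1.08% in Ctr + 4-OHT, for embryos SMH_125, SMH_126, SMH_129 and SMH_131 in that order (mean 1.22% ± 0.110, n = 4). In *Smg6*-iKO the share was 1.08%, 1.24%, 1.19% and 1.16% for embryos SMH_127, SMH_128, SMH_132 and SMH_133 (mean 1.17% ± 0.0693, n = 4). All *Smg6*-iKO libraries were thus below all Ctr libraries, whereas Ctr + 4-OHT spanned both ranges. The libraries of embryos SMH_125 and SMH_131, with the lowest shares of Ctr + 4-OHT, had the highest neuron marker sums of the series, 2501 and 2326 CPM, against 1857 and 1544 CPM in embryos SMH_126 and SMH_129. Their mesenchymal marker sums were also higher (558 and 666 CPM, against 279 and 235 CPM) and their progenitor marker sums lower (4350 and 4459 CPM, against 4626 and 5334 CPM). The *Smg6*-iKO library of SMH_127, with the lowest share, had the highest mesenchymal (1159 CPM) and the lowest progenitor sum (4234 CPM). The part of cell composition in the level of the ribosomal protein genes was not tested, and in bulk RNA fewer cells of a type and less RNA per cell cannot be told apart.

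**Figure D1:**
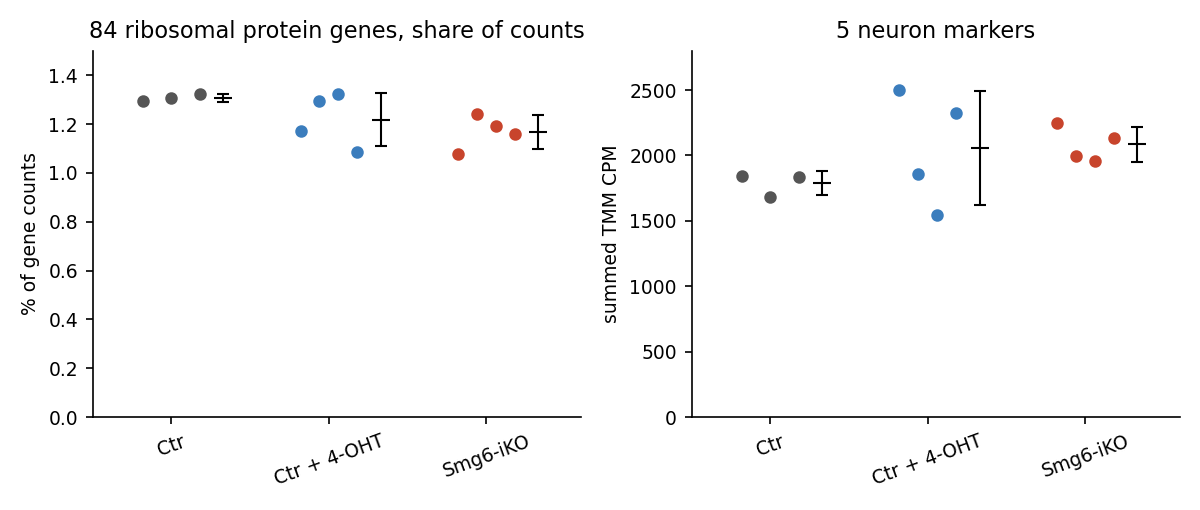
Share of all gene counts on the 84 ribosomal protein genes (left, %) and summed TMM CPM of 5 neuron markers (right) in each library of Ctr (n = 3), Ctr + 4-OHT (n = 4) and *Smg6*-iKO (n = 4), as points, with the mean and SD as bars. The 4 *Smg6*-iKO libraries (1.08% to 1.24%) sit below the 3 Ctr libraries (1.29% to 1.32%), and the 2 lower Ctr + 4-OHT libraries are those with the highest neuron marker sums, and also have higher mesenchymal and lower progenitor sums than the other two (not plotted).

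Of the 84 genes, 81 passed the filter on low counts and were tested in each comparison. In *Smg6*-iKO against Ctr + 4-OHT, 3 were higher and 0 lower at an adjusted p under 0.05, where 0.757% of the 17558 genes tested were higher and 0.416% lower. At an unadjusted p under 0.05, 4 members were higher and 5 lower, where 16.7% of all genes passed in either direction. The median log2 fold change of the 81 genes was -0.07, against 0.01 over all genes tested, and 60 of 81 lay below 0 (47.2% of all genes). This median depended on single libraries: it was -0.028 without SMH_129, -0.035 without SMH_126 and -0.13 without SMH_131 of Ctr + 4-OHT, and -0.037 without SMH_127 and -0.11 without SMH_128 of *Smg6*-iKO. With the Wald test of DESeq2, 3 were higher and 1 lower (2.71% and 3.45% of all genes). With only the Ctr + 4-OHT libraries of embryos SMH_126 and SMH_129, an alternative chosen after the data were seen for the neuron markers of the other two, the median was -0.21, with 2 genes higher and 2 lower (0.801% and 0.916% of all genes). The libraries left out were also those with the lowest shares of counts on the ribosomal protein genes, so lower values in *Smg6*-iKO are built into this choice and are not support for a fall. In *Smg6*-iKO against Ctr, 3 were higher and 17 lower, where 4.27% of 17974 genes were higher and 4.98% lower, the median was -0.19, against 0.01 over all genes, and 68 of 81 lay below 0 (49.0% of all genes). The p-values measure the spread between cultures of single embryos. With the embryo as a block, which uses that embryos SMH_128, SMH_132 and SMH_133 each gave a Ctr and a *Smg6*-iKO library, 36 members were lower (11.2% of all genes) and 3 higher (10.3%), with a median of -0.15. The SMH_127 library has no Ctr partner, so the difference in this fit rests on the pairs of these 3 embryos.

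The 3 genes that rose against both controls were *Rps12*, *Rpl12* and *Rpl10a*. *Rps12* (ENSMUSG00000061983, GRCm38 chromosome 10, 23785183 to 23787275, minus strand) encodes a protein of the small subunit. It stood at 21.0, 22.3 and 23.2 CPM in Ctr, at 22.9, 22.6, 24.2 and 18.6 CPM in Ctr + 4-OHT, and at 34.2, 41.5, 37.1 and 42.8 CPM in *Smg6*-iKO, in the order of embryos given above. Every *Smg6*-iKO library lay above every control library. The log2 fold change was 0.83 ± 0.10 (SE, 1.78-fold, adjusted p = 0.00395) against Ctr + 4-OHT and 0.81 ± 0.08 (1.76-fold, adjusted p = 0.000784) against Ctr.

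*Rpl12* (ENSMUSG00000038900, chromosome 2, 32961559 to 32965345, plus strand) encodes a large-subunit protein at the base of the stalk that recruits elongation factors. Its levels were 40.7, 40.6 and 47.2 CPM in Ctr, 35.9, 44.3, 41.8 and 32.6 CPM in Ctr + 4-OHT and 59.5, 72.4, 65.1 and 67.4 CPM in *Smg6*-iKO. Again no *Smg6*-iKO library overlapped a control. The log2 fold change was 0.78 ± 0.10 (1.72-fold, adjusted p = 0.00661) against Ctr + 4-OHT and 0.63 ± 0.08 (1.54-fold, adjusted p = 0.00268) against Ctr.

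*Rpl10a* (ENSMUSG00000037805, chromosome 17, 28328471 to 28331032, plus strand) encodes the protein of the L1 stalk, which moves with the leaving tRNA. It was at 34.6, 31.6 and 37.4 CPM in Ctr, at 33.6, 36.8, 37.7 and 31.6 CPM in Ctr + 4-OHT and at 43.1, 50.3, 46.4 and 48.6 CPM in *Smg6*-iKO, also without overlap. The rise was smaller, with a log2 fold change of 0.44 ± 0.08 (1.36-fold, adjusted p = 0.0243) against Ctr + 4-OHT and 0.45 ± 0.07 (1.37-fold, adjusted p = 0.00692) against Ctr. Against Ctr + 4-OHT the call of *Rpl10a* was lost without embryo SMH_125 (adjusted p = 0.0667), without embryo SMH_131 (0.0647), and without the *Smg6*-iKO library of embryo SMH_128 (0.0595), SMH_132 (0.0878) or SMH_133 (0.0928). *Rps12* and *Rpl12* passed in each of these fits. These were also the members whose *Smg6*-iKO libraries lay above all Ctr + 4-OHT libraries, 3 of 81, where 5.03% of all genes tested did so. Below all Ctr + 4-OHT libraries lay 1 member (*Rpl5*), where 5.99% of all genes did.

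**Figure D2:**
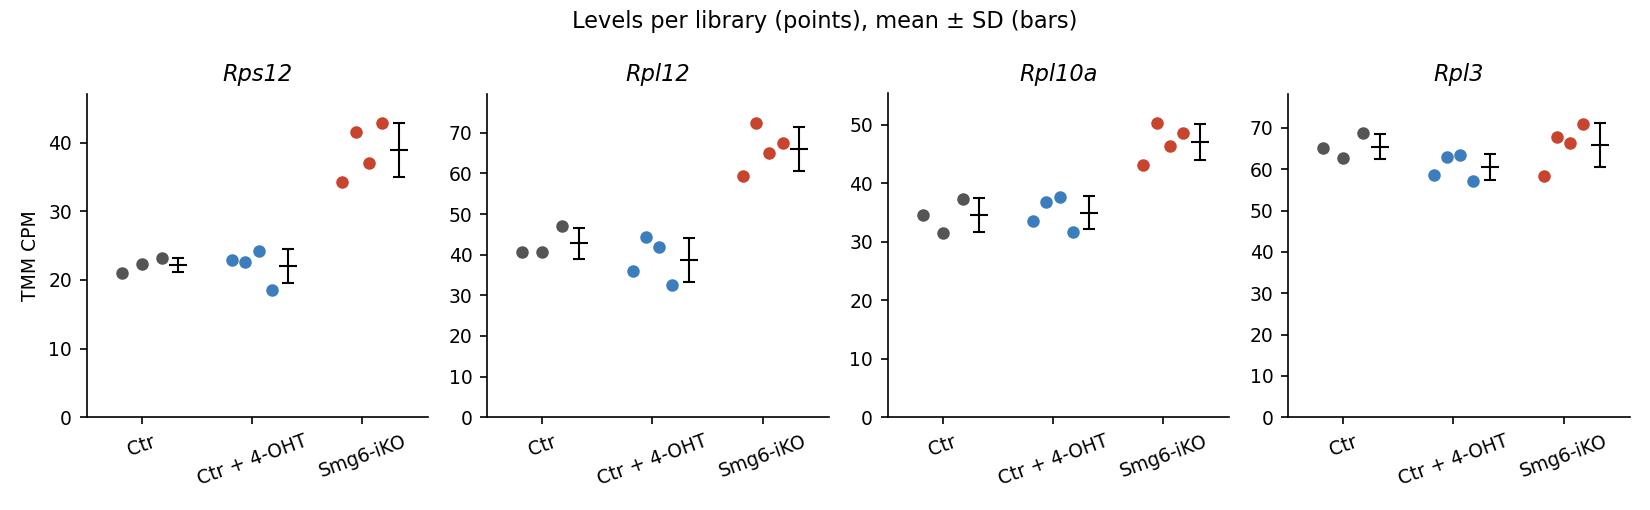
Level of *Rps12*, *Rpl12*, *Rpl10a* and *Rpl3* in TMM CPM per library (points) with the mean and SD (bars), in Ctr (n = 3), Ctr + 4-OHT (n = 4) and *Smg6*-iKO (n = 4). The *Smg6*-iKO libraries stand above all controls for the first 3 genes (34.2 to 42.8 CPM for *Rps12*), and overlap them for *Rpl3*.

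Between Ctr + 4-OHT and Ctr these 3 genes differed by log2 fold changes of -0.01 ± 0.10 (*Rps12*), -0.15 ± 0.11 (*Rpl12*) and 0.02 ± 0.09 (*Rpl10a*), and none passed the test (adjusted p = 0.991, 0.754 and 0.968). Within the embryos cultured both ways, *Rps12* went from 21.0 to 41.5 CPM (embryo SMH_128), from 22.3 to 37.1 (embryo SMH_132) and from 23.2 to 42.8 (embryo SMH_133). With the embryo as a block the log2 fold changes against Ctr were 0.87, 0.68 and 0.49 for *Rps12*, *Rpl12* and *Rpl10a*.

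In the GENCODE M21 annotation each of these 3 genes has at least 1 transcript of the NMD class. The stop codons of these transcripts are shown because SMG6 cuts near the stop codon of its targets, with those of *Rpl3* and *Rps13*, which have such a transcript and did not pass the test. Each sequence holds 30 bases of the spliced transcript, 5′ to 3′, with the stop codon in capitals.

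Rps12-204 (stop at chr10:23786658-23786660, minus strand): gcacaaaagttcTGAatgtcatccggccag

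Rpl12-201 (stop at chr2:32962594-32962596, plus strand): gaaagttggcgaTGAcattgccaaggctac

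Rpl10a-203 (stop at chr17:28329061-28329063, plus strand): ttggcaccgctcTAAccccacccagccctc

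Rpl10a-211 (stop at chr17:28330526-28330528, plus strand): ggcaccgtcagcTAAgaagtacgatgcctt

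Rpl3-205 (stop at chr15:80081034-80081036, minus strand): gtgctctgctccTGAaggcacaagtctaag

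Rps13-205 (stop at chr7:116333685-116333687, minus strand): ataggtgagtgtTGAtgtaatctcttcctt

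These stops lie 238 bases (Rps12-204), 358 bases (Rpl12-201), 539 bases (Rpl10a-203), 169 bases (Rpl10a-211), 138 bases (Rpl3-205) and 857 bases (Rps13-205) before the last exon junction of their transcript. An exon junction well downstream of the stop is the textbook feature that marks an mRNA for NMD. The annotated start of Rps12-204 is incomplete. The deposited counts sum all transcripts of a gene, so the data do not say which transcript of the 3 genes rose.

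*Rps12*, *Rpl12* and *Rpl10a* belong to a list of 7 genes, with *Rpl3*, *Rpl7a*, *Rpl8* and *Rps13*. All but *Rps12* were taken from background knowledge of decay-prone isoforms or feedback through splicing. *Rps12* was added because the study lists it among its changed genes on the same libraries, so its rise was known beforehand. The list was drawn up with earlier results of these data known, so its counts are a description. The other 4 did not pass the test in either comparison. *Rpl3*, near the peptidyl transferase centre, was at 62.7 to 68.7 CPM in Ctr, 57.2 to 63.5 CPM in Ctr + 4-OHT and 58.3 to 71.0 CPM in *Smg6*-iKO. Its log2 fold change was 0.13 ± 0.07 (adjusted p = 0.392) against Ctr + 4-OHT and 0.01 ± 0.07 (adjusted p = 0.961) against Ctr. *Rps13* was low in all groups, with 12.4 to 14.5, 10.5 to 15.0 and 11.1 to 12.6 CPM, and log2 fold changes of -0.05 ± 0.12 and -0.15 ± 0.09. *Rpl7a* and *Rpl8* had log2 fold changes of -0.13 ± 0.07 and -0.10 ± 0.09 against Ctr + 4-OHT, and of -0.20 ± 0.07 and -0.22 ± 0.07 against Ctr (adjusted p = 0.0875 and 0.0665). With the embryo as a block *Rpl7a* and *Rpl8* were called lower than in Ctr (adjusted p = 0.0184 and 0.0180).

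An annotated NMD transcript is not rare among these genes. It was found for 19 of the 84, and a transcript with a retained intron for 64. Of the 19 genes, all tested, 3 rose against Ctr + 4-OHT and 0 fell, with a median log2 fold change of -0.05. Of all genes tested, 0.757% rose and 0.416% fell in that comparison. The other 16 of the 19 genes had values between -0.18 (*Rpl14*) and 0.13 (*Rpl3*), with a median of -0.06. Of the 62 tested genes without such a transcript, 0 were called, with a median of -0.08. Against Ctr, 1 of the 19 fell (*Rpl14*) and 16 of the 62 (4.98% of all genes), and with the block 6 and 30 (11.2%). The split by annotated NMD transcript was considered after the first fits, with the 3 rising genes known, so these counts are a description. The difference between these classes was not tested.

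By the annotation, 30 of the 84 genes hold at least 1 snoRNA gene on their own strand, 59 in all. Of the 30 hosts, 2 rose against Ctr + 4-OHT (*Rps12* and *Rpl12*) and 0 fell, with a median log2 fold change of -0.10. Of all genes tested, 0.757% rose and 0.416% fell there. Of the 51 tested genes without a snoRNA, 1 rose (*Rpl10a*), with a median of -0.06. Against Ctr, 2 hosts rose and 6 fell (median -0.20), and 1 gene without a snoRNA rose and 11 fell (median -0.18). In that comparison 4.27% of all genes rose and 4.98% fell. Without the isoform list, the 25 other hosts had a median of -0.11 against Ctr + 4-OHT, and the 49 remaining genes one of -0.06, with 0 called in both. Against Ctr these medians were -0.22 and -0.18, with 6 of 25 and 11 of 49 lower, where 4.98% of all genes were. With the block, 15 of the 30 hosts and 21 of the 51 other genes were lower, and 14 of 25 and 20 of 49 without the isoform list, where 11.2% of all genes were. No test of the difference between these classes was made. The snoRNAs inside the 3 rising genes (*Snora33*, *Snord100* and *Gm23130* in *Rps12*, *Snora65* in *Rpl12*) had 0 counts in all 11 libraries. Reads over more than 1 gene were not counted, so this says nothing of their level.

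**Figure D3:**
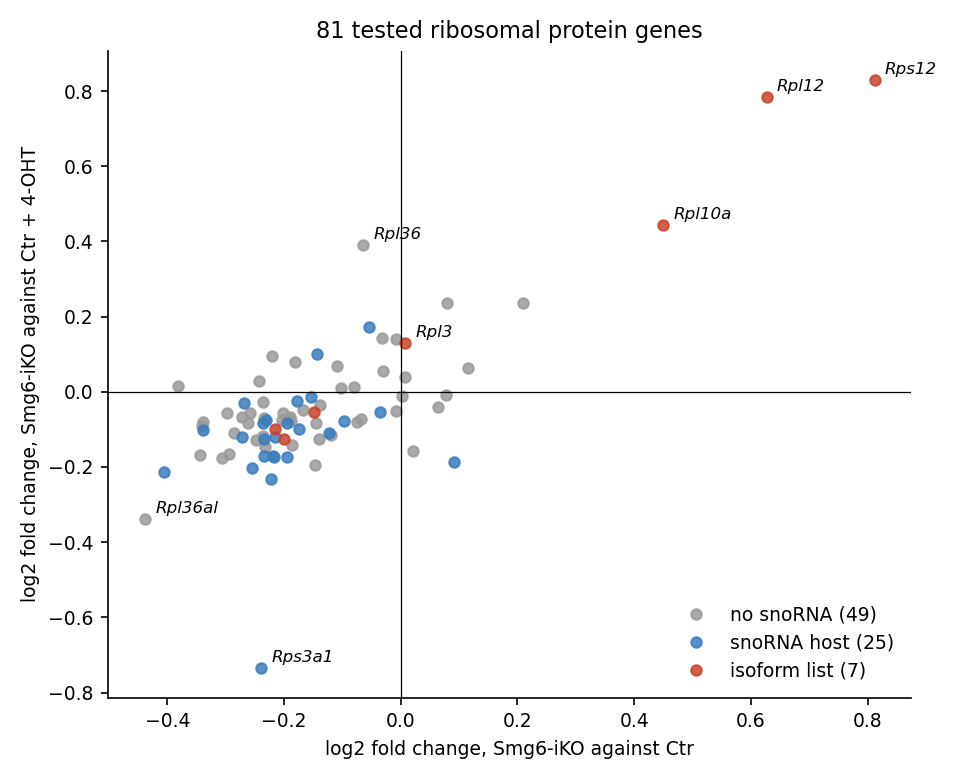
Log2 fold change of the 81 tested ribosomal protein genes in *Smg6*-iKO against Ctr (x axis) and against Ctr + 4-OHT (y axis), coloured as isoform list (7), other snoRNA hosts (25) and other genes (49). Both axes share the *Smg6*-iKO libraries, so a diagonal spread is built in. *Rps12*, *Rpl12* and *Rpl10a* lie apart at the upper right, from 0.44 to 0.83 against Ctr + 4-OHT.

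The 17 genes that were lower in *Smg6*-iKO than in Ctr came from both subunits, with 11 of 49 tested for the large (*Rpl36al*, *Rpl39*, *Rpl35a*, *Rpl14*, *Rplp1*, *Rpl7*, *Rpl4*, *Rpl37*, *Rpl34*, *Rpl30* and *Rpl32*) and 6 of 32 for the small subunit (among them *Rps28*, *Rps24*, *Rps26*, *Rps21* and *Rps14*). Of all genes tested, 4.98% were lower. The median was -0.19 for each subunit, and with the block 21 and 15 genes were lower, where 11.2% of all genes were. The falls were small, with log2 fold changes from -0.44 (*Rpl36al*) to -0.22 (*Rpl32*). *Rps26*, which sits where the mRNA leaves the small subunit, was at 222, 219.7 and 227 CPM in Ctr and at 164, 181, 178 and 180.4 CPM in *Smg6*-iKO. Its level in Ctr + 4-OHT was 171, 211, 210.4 and 163 CPM for embryos SMH_125, SMH_126, SMH_129 and SMH_131, so that embryos SMH_125 and SMH_131 lay with *Smg6*-iKO. The log2 fold change against Ctr was -0.34 ± 0.05 (adjusted p = 0.00560) and against Ctr + 4-OHT -0.09 ± 0.09 (adjusted p = 0.659).

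*Rps24*, a small-subunit gene, and *Rpl35a*, a large-subunit gene, are like *Rps26* mutated in Diamond-Blackfan anaemia. *Rps24* was at 298, 324 and 309 CPM in Ctr and at 241, 262, 247 and 228 CPM in *Smg6*-iKO (log2 fold change -0.34 ± 0.06, adjusted p = 0.00858). Ctr + 4-OHT was at 255, 281, 317 and 253 CPM and overlapped both, with SMH_125 and SMH_131 in the range of *Smg6*-iKO and SMH_129 in that of Ctr. *Rpl35a* fell from 112 to 118 CPM in Ctr to 86.0 to 95.9 CPM in *Smg6*-iKO (log2 fold change -0.34 ± 0.05, adjusted p = 0.00588). *Rpl39*, a small protein lining the exit tunnel, was at 170, 197 and 159 CPM in Ctr and at 131.2, 149.1, 127.9 and 120.2 CPM in *Smg6*-iKO (log2 fold change -0.41 ± 0.09, adjusted p = 0.0191). Of the others, *Rpl14* fell by 0.31, *Rps21* by 0.29, *Rpl37* by 0.27, *Rpl34* by 0.24, *Rpl30* and *Rps14* by 0.23 and *Rpl32* by 0.22 on the log2 scale.

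*Rpl4*, the gene with most reads among the 17, had 1356 to 1399 CPM in Ctr and 1068 to 1262 CPM in *Smg6*-iKO (log2 fold change -0.27 ± 0.06, adjusted p = 0.0286). *Rps28* fell by 0.38 on the log2 scale against Ctr (SE 0.08, adjusted p = 0.0152) and stood at 37.9 ± 3.06 CPM in *Smg6*-iKO and 37.7 ± 3.96 CPM in Ctr + 4-OHT (SD, n = 4 each) against 49.3 ± 3.81 CPM in Ctr (n = 3). For the 17 genes, the 4 *Smg6*-iKO libraries lay below the 3 Ctr libraries in each case. This held for 38 of the 81 members, where it held for 11.9% of all genes tested. The 4 *Smg6*-iKO libraries lay above all Ctr libraries for 4 members (the 3 rising genes and *Rpl5*), where they did for 11.4% of all genes. None of the 81 had all *Smg6*-iKO libraries below all 7 control libraries. Against Ctr + 4-OHT, 16 of the 17 had a log2 fold change below 0 (*Rps28* was the exception, at 0.02), and 0 passed the test. In Ctr + 4-OHT against Ctr, 17 of 17 had a value below 0. These comparisons share libraries.

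The count of 17 depended on the libraries and the fit. Its range was 6 to 37 when single libraries were left out, and the share of all genes called lower moved with it. Without the *Smg6*-iKO library of SMH_128 it was 37 (7.76% of all genes), without SMH_132 10 (2.86%), without SMH_127 9 (2.64%) and without SMH_133 6 (1.96%). Without the Ctr library of SMH_128 it was 6 (1.64% of all genes), without SMH_132 7 (2.04%) and without SMH_133 6 (3.52%). It was 36 with the block (11.2%), 37 with DESeq2's Wald test (9.43%) and 4 when all 11 libraries were fitted together (2.63%). *Rps24* and *Rps26* passed in each of these fits, and the 17 genes all passed with the block. The neuron marker sum was higher in all *Smg6*-iKO libraries (1956 to 2248 CPM) than in all Ctr libraries (1684 to 1845 CPM). The progenitor marker sum was lower in all *Smg6*-iKO libraries (4234 to 4810 CPM) than in all Ctr libraries (4909 to 5098 CPM). *Hes5*, a Notch target among these markers, was at 26.4 to 38.2 CPM against 62.6 to 99.3 CPM. *Pax6*, *Sox2* and *Fabp7* were also lower without overlap. *Nes* (719.7 to 822.4 against 765.1 to 882.3 CPM) and *Vim* (1974 to 2310 against 2145 to 2366 CPM) overlapped. The part of these differences in the fall was not tested.

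In Ctr + 4-OHT against Ctr, 0 of 81 members passed the edgeR test in either direction, where 0.0396% of 17665 genes were higher and 0.181% lower. At an unadjusted p under 0.05, 1 member was higher and 12 lower, where 8.28% of all genes passed in either direction. The median log2 fold change was -0.10, against 0.00451 over all genes, -0.039 without SMH_131 of Ctr + 4-OHT, and 0.026 with only embryos SMH_126 and SMH_129 in Ctr + 4-OHT. DESeq2's Wald test called 1 higher (*Rpl5*) and 1 lower (*Rps28*), where it called 0.212% and 0.617% of all genes. The lowest values were those of *Rpl36* (-0.44 ± 0.16), *Rps28* (-0.39 ± 0.10) and *Rps15* (-0.30 ± 0.09), and the highest those of *Rps3a1* (0.51 ± 0.34), *Rpl5* (0.29 ± 0.06) and *Rpl35* (0.19 ± 0.10). All Ctr + 4-OHT libraries lay below all Ctr libraries for 12 members, among them *Rps26*, *Rps28*, *Rpl36* and *Rplp1*, where they did for 4.91% of all genes, and 66 of 81 had a log2 fold change below 0 (48.8% of all genes).

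*Rpl5* and *Rpl11* form a particle with 5S ribosomal RNA that, when ribosome assembly is disturbed, binds MDM2 and stabilises p53. *Rpl5* was at 64.0, 63.3 and 60.6 CPM in Ctr, at 75.8, 75.8, 81.3 and 73.3 CPM in Ctr + 4-OHT and at 64.1, 71.9, 66.7 and 64.2 CPM in *Smg6*-iKO. The Ctr + 4-OHT libraries were higher than those of both other groups without overlap, and *Rpl5* was the one member above all Ctr libraries in that group, where 3.80% of all genes tested were. With edgeR the differences did not pass (adjusted p = 0.155 against Ctr and 0.149 for *Smg6*-iKO against Ctr + 4-OHT, log2 fold change -0.19 ± 0.06). With DESeq2 both did (adjusted p = 0.0162 and 0.0459). *Rpl11* went the other way, with 16.0 to 17.3 CPM in Ctr, 12.6 to 15.8 CPM in Ctr + 4-OHT and 13.8 to 15.5 CPM in *Smg6*-iKO, and did not pass in any comparison (adjusted p = 0.149 for *Smg6*-iKO against Ctr).

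The stalk proteins *Rplp0*, *Rplp1* and *Rplp2*, which bind elongation factors, had log2 fold changes of -0.15 ± 0.09, -0.06 ± 0.09 and -0.08 ± 0.11 against Ctr + 4-OHT. Against Ctr, *Rplp1* fell (-0.30 ± 0.06, adjusted p = 0.0178) from 562 to 597 CPM to 425 to 493 CPM. *Rplp0* (-0.23 ± 0.07) and *Rplp2* (-0.20 ± 0.08) did not pass (adjusted p = 0.0506 and 0.136). With the block *Rplp0* passed (adjusted p = 0.00887).

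Some ribosomal proteins have a paralog that can take their place, often in a tissue such as testis or muscle. The 3 genes that failed the filter were such paralogs. *Rpl10l* had 0 counts in all 11 libraries, which allows up to 0.115 CPM in the smallest library (3 counts). *Rpl39l* had 12 counts in all and at most 4 in a library, and *Rpl3l* 22 counts and at most 6. Of the expressed pairs, *Rpl22* stood at 387 ± 9.24 CPM in Ctr and 350.5 ± 22.9 CPM in *Smg6*-iKO, and *Rpl22l1*, whose mRNA is known to be controlled by *Rpl22*, at 47.0 ± 1.75 and 50.9 ± 4.82 CPM, neither past the test. *Rpl36al* fell against Ctr (-0.44 ± 0.12, adjusted p = 0.0427), with 10.7 to 12.8 CPM in Ctr and 7.40 to 9.80 CPM in *Smg6*-iKO. Its partner *Rpl36a* had -0.14 ± 0.11 (adjusted p = 0.442). *Rpl7* fell (-0.29 ± 0.06, adjusted p = 0.0215) and *Rpl7l1*, which acts in ribosome assembly, had 0.06 ± 0.07 (adjusted p = 0.584). *Rps27* (0.08 ± 0.11) and *Rps27l* (-0.26 ± 0.10), *Rpl10* (-0.14 ± 0.08) and *Rps4x* (-0.27 ± 0.08) did not pass against Ctr. With the block, *Rps27l* and *Rps4x* did (adjusted p = 0.0293 and 0.00864). Differences within pairs were not tested. Reads that mapped to several positions were not counted, so genes that share sequence with other genes lost reads, which makes their values uncertain.

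The member with the most negative value against Ctr + 4-OHT was *Rps3a1* (chromosome 3, 86137940 to 86142702, minus strand), at -0.74 ± 0.30, and it did not pass (adjusted p = 0.251). Its levels fell into a low and a high range that followed the embryo. It was low in embryos SMH_128 and SMH_133 in both groups, with 41.9 and 39.9 CPM in Ctr and 44.2 and 37.0 CPM in *Smg6*-iKO. It was high in embryo SMH_132 in both groups, with 81.6 CPM in Ctr and 69.6 CPM in *Smg6*-iKO. Among the embryos with a single library, SMH_131 (37.2 CPM) and SMH_127 (34.5 CPM) were low, and SMH_125, SMH_126 and SMH_129 (80.5, 89.5 and 103 CPM) high. With the embryo as a block the log2 fold change against Ctr was -0.09 (adjusted p = 0.308). The embryos were of mixed strain, and 28.99% of the 50-base windows of the *Rps3a1* mRNA occur in no annotated transcript of another gene. The part of either in the 2 ranges was not tested.

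**Figure D4:**
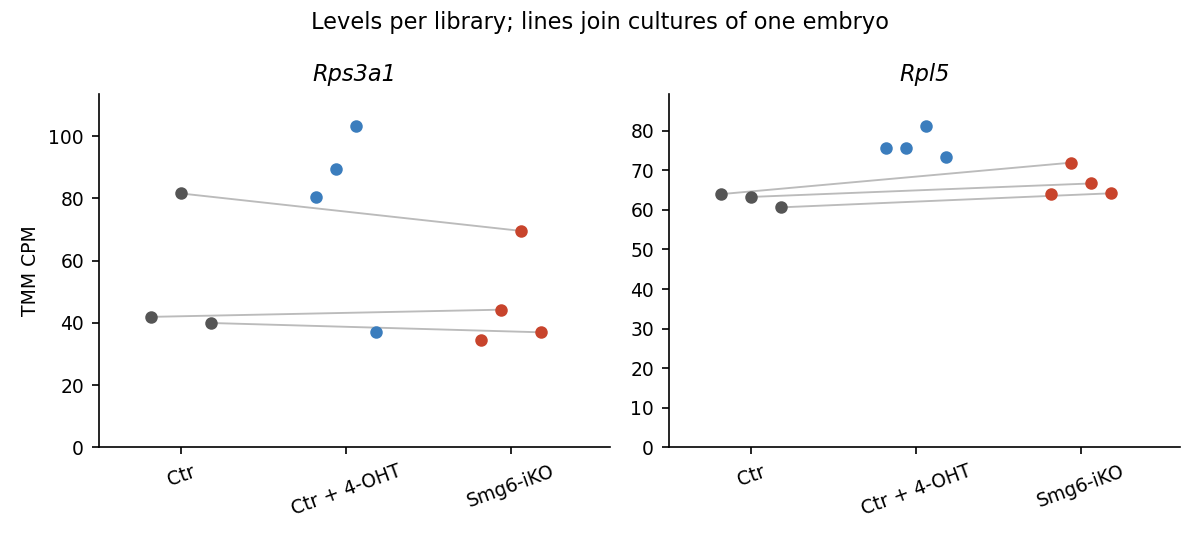
TMM CPM of *Rps3a1* and *Rpl5* in each library of Ctr (n = 3), Ctr + 4-OHT (n = 4) and *Smg6*-iKO (n = 4), with lines joining the Ctr and *Smg6*-iKO cultures of the same embryo. *Rps3a1* lies either between 34.5 and 44.2 or between 69.6 and 103 CPM and keeps its range within an embryo, whereas *Rpl5* is highest in Ctr + 4-OHT (73.3 to 81.3 CPM).

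Other large values against Ctr + 4-OHT that did not pass were those of *Rpl36* (0.39 ± 0.14, adjusted p = 0.208), whose Ctr + 4-OHT libraries were low (4.98 to 7.62 CPM, against 7.80 to 9.95 in Ctr and 7.44 to 9.77 in *Smg6*-iKO), *Rpl36al* (-0.34 ± 0.12, adjusted p = 0.193) and *Rpl13* (-0.23 ± 0.09, adjusted p = 0.224). With only embryos SMH_126 and SMH_129 as Ctr + 4-OHT, *Rps12* and *Rpl12* passed and *Rpl10a* did not (0.34, adjusted p = 0.0597). The 2 lower members there were *Rpl23* and *Rpl32*, named after their values were seen. With all 4 libraries they had -0.20 ± 0.10 and -0.17 ± 0.09 (adjusted p = 0.350 and 0.376).

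The counted levels of the 84 genes differed far more than the near equal use of their proteins. Per kilobase of annotated exon, *Rplp1* was highest at 1011 CPM per kb, before *Rpl8* (733) and *Rpl4* (619), as means of the 11 libraries. Of the tested genes *Rpl24* (1.48), *Rps29* (2.12) and *Rpl38* (2.25) were lowest. Reads that mapped to several positions were not counted, and the annotation holds 298 pseudogenes named after ribosomal protein genes. Of the 50-base windows of the principal mRNA, a median of 41.3% per gene occurred in no annotated transcript of another gene, with a range from 1.35% (*Rps27*) to 100%. Of windows found only in the other transcripts of a gene, such as those with retained introns, the median was 99.4%, over 80 genes that have them. The 53 tested genes with under 50% unique windows had a median level of 17.7 CPM per kb, and the 28 with more had 102 CPM per kb. The genome outside annotated transcripts was not searched.

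This bears on the rising genes. Unique windows made up 9.89% of the principal mRNA of *Rps12*, 11.9% of that of *Rpl10a* and 50.6% of that of *Rpl12*. In their other annotated transcripts the share was 90.5%, 99.6% and 96.8%. Reads counted for *Rps12* and *Rpl10a* could thus come from small stretches of the main mRNA and from most of the retained introns and other alternative parts. Of the 28 genes with at least 50% unique windows, 1 rose and 9 fell against Ctr, with a median log2 fold change of -0.23. Of the 53 others, 2 rose and 8 fell, with a median of -0.15. Of all genes 4.27% rose and 4.98% fell. With the block 20 of the 28 and 16 of the 53 were lower, where 11.2% of all genes were. The split at 50% was considered after the first fits, and the difference between the classes was not tested.

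**Figure D5:**
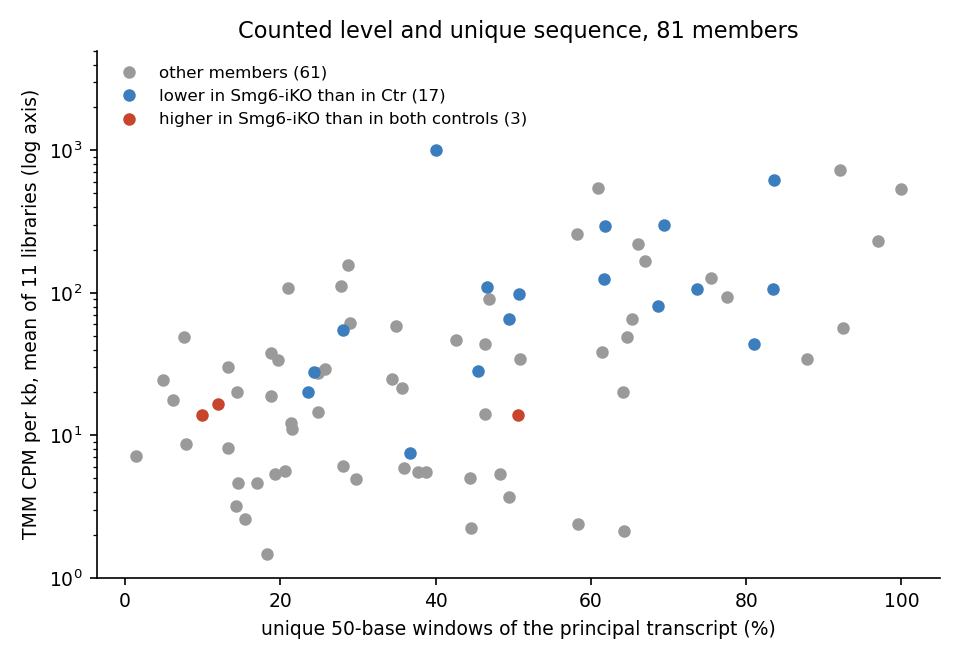
Counted level of the 81 tested genes (TMM CPM per kb of annotated exon, mean of 11 libraries, log axis) against the share of 50-base windows of the principal transcript that occur in no annotated transcript of another gene (%). Genes with many shared windows tend to have a low counted level, and the 3 rising genes lie between 13.8 and 16.7 CPM per kb, 2 of them under 12% unique.

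The start sites of the genes are shown because a pyrimidine tract at the 5′ end is the hallmark of this gene family. Of the 84 genes, 64 were matched to the RefSeq promoter table (GRCm38.p6). Each window runs from 10 bases before to 20 bases from the annotated start, and capitals mark the longest run of a C followed by at least 4 bases that are C or T, on the transcript's strand. *Rps12*, *Rpl12* and *Rpl10a* are those that rose in *Smg6*-iKO, and *Rps26* and *Rps24* those that were lower than in Ctr under each setting.

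Rps12 (chr10:23787190-23787219, minus strand): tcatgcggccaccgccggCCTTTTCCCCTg

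Rpl12 (chr2:32961702-32961731, plus strand): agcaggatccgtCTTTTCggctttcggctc

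Rpl10a (chr17:28328461-28328490, plus strand): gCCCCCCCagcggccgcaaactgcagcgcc

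Rps26 (chr10:128626487-128626516, minus strand): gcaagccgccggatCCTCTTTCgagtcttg

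Rps24 (chr14:24490668-24490697, plus strand): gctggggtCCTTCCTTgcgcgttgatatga

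The run marked for *Rpl10a* lies wholly before the annotated start and is not in the mRNA, and a further annotated start of *Rpl10a* has no run in its window. The others reach into or lie within the mRNA. Such a run, before or after the start, occurred in 60.5% of the 76 windows of ribosomal protein genes and in 35.8% of the 32851 windows of all promoters in the table. A tract of at least 8 bases occurred in 31.6% and 8.68%.

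Other genes of the translation machinery are given beside the 4.98% of all genes that were lower than in Ctr. *Fau* and *Rack1*, which encode further ribosomal components, did not pass the test in any comparison, with log2 fold changes of -0.13 ± 0.14 and -0.16 ± 0.06 against Ctr. Of 16 other genes known for a 5′ pyrimidine tract, 4 fell against Ctr (*Naca*, *Btf3*, *Npm1* and *Eif3h*) and 0 against Ctr + 4-OHT, with medians of -0.18 and -0.08. *Naca*, a chaperone at the ribosome exit, fell by 0.36 on the log2 scale (SE 0.05, adjusted p = 0.00452). Of 58 tested genes of ribosome assembly, 2 fell against Ctr, *Nhp2* (-0.46 ± 0.08, adjusted p = 0.00958), a component of H/ACA snoRNPs, and *Npm1* (-0.22 ± 0.06, adjusted p = 0.0456), with a median of -0.01. Of 77 tested genes of mitochondrial ribosomal proteins, 9 fell against Ctr and 0 rose, from *Mrps18a* (-0.45 ± 0.07, adjusted p = 0.00530) to *Mrpl58* (-0.20 ± 0.06, adjusted p = 0.0461). Their median was -0.10 against either control. In *Smg6*-iKO against Ctr + 4-OHT none of these genes passed the test, and *Mrps18a*, *Nhp2* and *Naca* had -0.02 ± 0.07, -0.11 ± 0.08 and -0.18 ± 0.06. In Ctr + 4-OHT against Ctr these 3 had -0.42 ± 0.08, -0.35 ± 0.10 and -0.16 ± 0.07, also without passing the test (adjusted p = 0.126, 0.351 and 0.561).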

How the data were processed

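Total RNA (RIN above 9 per the study's methods) was depleted of ribosomal RNA and sequenced as stranded single 50-base reads. Per the labels and methods, the authors mapped reads with STAR 2.5.4b to GRCm38 and counted them with featureCounts 1.5.0 on Ensembl genes, without reads mapping to several positions or genes. They deposited raw counts per gene. The 11 libraries summed to 26418249 to 33756875 counts, and counting error enters each value.

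Of 53801 identifiers, 53706 were paired with a symbol by GENCODE M21. The members, lists and alternatives were chosen with earlier results of these data known. Only the libraries of the groups compared entered a fit of edgeR 4.0.16 in R 4.3.3 (filterByExpr, TMM, quasi-likelihood test, Benjamini-Hochberg adjustment over all genes tested, threshold 0.05). The SE of a log2 fold change was taken as its size over √F. CPM were scaled by TMM over all 11 libraries. Within a group, cultures are from separate embryos. Embryos SMH_128, SMH_132 and SMH_133 gave a library in both Ctr and *Smg6*-iKO, and their deviations from the group means correlated at 0.328, 0.399 and 0.425, against -0.265 to 0.0948 for other pairs, so the embryo pairs these libraries. Libraries of a group differed beyond sampling noise (chi-square of at least 10.8 per gene).

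Named were the members called in either comparison of *Smg6*-iKO, the 3 largest and 3 smallest log2 fold changes per comparison, the 3 highest and 3 lowest levels per kb, the isoform, 5S, stalk and paralog lists, and members below the filter. A few genes these rules name are not reported here. Annotated NMD transcripts and the split at 50% unique windows were considered after the first fits. Unique windows are exact 50-base windows absent, on both strands, from GENCODE M21 transcripts of other genes. The principal transcript is that tagged by APPRIS. Alternatives were DESeq2's size factors and its Wald test (DESeq2 1.42.0), TMM without the members, no filter, a minimum of 10 counts, all libraries in one fit, a gene length correction (loess, span 0.3), the block, and each library left out. Plots used Python 3.11.15 and matplotlib 3.10.9.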

Additional observations from a re-analysis of the deposited data

Results flagged for a closer look

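Among 92 groups of 4 libraries checked (the levels of named members, the share of counts and the median level in Ctr + 4-OHT and *Smg6*-iKO), 3 had a library whose gap to its nearest neighbour exceeded Dixon's 95% critical share of the range, where chance gives about 1 in 20. All 3 were in *Smg6*-iKO. *Rpl22l1* stood at 58.1 CPM in embryo SMH_128 against 47.8 to 49.1 CPM in the others. *Rpl37* stood at 115 CPM in embryo SMH_127 against 129.7 to 132.7 CPM. *Rps27* stood at 6.97 CPM in embryo SMH_127 against 8.32 to 8.40 CPM.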

How the results depend on the processing

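The median log2 fold change of the members kept its direction under the alternatives named in the methods. With only embryos SMH_126 and SMH_129 as Ctr + 4-OHT, an alternative chosen after seeing the data, it was -0.21 in *Smg6*-iKO against Ctr + 4-OHT and turned to 0.026 in Ctr + 4-OHT against Ctr, and 2 members were lower in the former. DESeq2's Wald test gave 1 lower member in *Smg6*-iKO against Ctr + 4-OHT, and 1 higher and 1 lower in Ctr + 4-OHT against Ctr. In *Smg6*-iKO against Ctr the count of lower members was 33 without a filter (3.49% of all genes), 4 with all libraries in one fit, 37 with DESeq2, 36 with the block, 36 with the block and the length correction (11.95%), and 6 to 37 with a library left out. The block changed the call of no rising member. The causes were not tested.

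Values near 0 changed sign. *Rpl3* against Ctr was -0.000095 with DESeq2, -0.0021 with the length correction and -0.033 to 0.062 with a library left out. With a library left out, *Rps13* against Ctr + 4-OHT was -0.13 to 0.050, and between the controls *Rpl10a* was -0.042 to 0.085 and *Rps12* -0.055 to 0.074. Between the controls *Rps12* was 0.0026 without a filter, 0.0017 with the length correction and 0.084 with SMH_126 and SMH_129 only, where *Rpl12* was 0.015. Depth limits *Rpl24*, *Rps29* and *Rpl38*, with 24 to 57 counts in a library.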
